A study of Homo sapiens with 12 samples.

Results

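Nuclear factor kappa B (NF-kB) was followed through 9 of its own genes: the 5 subunits RELA, RELB, REL, NFKB1 and NFKB2, the inhibitors NFKBIA and NFKBIE, and the feedback targets TNFAIP3 and BIRC3. These 9 of the 35579 genes with an estimate were chosen by the pattern of measured values in these same libraries, with earlier results in view, so their levels, their fold changes and the count of them past the thresholds applied to all genes are descriptions, given without p-values. WM-266-4, a human melanoma cell line, gave 12 libraries, 1 for each of 4 groups in each of 3 experiments. All 4 groups carried a stable lentiviral knock-down of the receptor tyrosine kinase TYRO3, were transfected with jetPRIME and were serum starved overnight. The groups were transfected with pEZY-myc-his GFP, with wild-type TYRO3 (WT), with TYRO3 ΔGS or with TYRO3 ΔADAM. The study describes ΔGS as resistant to cleavage by gamma-secretase and ΔADAM as resistant to shedding by ADAM proteases, and describes its control as an empty plasmid, whereas the labels name GFP. Comparison of each TYRO3 form with the control asks what expression of the receptor does, and comparison of WT with both variants asks what its cleavage adds. The 3 libraries of a group are separate experiments on 1 line, and a transfected pool holds cells with and without the plasmid.

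NF-kB proteins act as dimers that inhibitors of the IkB family hold in the cytoplasm. In the canonical pathway, signals from cytokine and pattern recognition receptors lead the IKK complex to mark the IkB proteins for degradation, which frees dimers of p65, the product of RELA, with p50, the processed product of NFKB1. In the non-canonical pathway the kinase NIK leads to processing of the NFKB2 product p100 to p52, the partner of RELB. Several genes of the system are themselves targets of NF-kB, among them those of IkB alpha (NFKBIA), A20 (TNFAIP3) and cIAP2 (BIRC3), which form feedback loops.

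RELB, NFKB2, NFKBIA and BIRC3 were higher with every TYRO3 form. In each of these 4 genes the lowest of the 9 TYRO3 libraries lay above the highest of the 3 control libraries, whereas RELA, REL, NFKB1, NFKBIE and TNFAIP3 overlapped between control and TYRO3 libraries. BIRC3 was 2.33, 2.39 and 2.29 times the control level with WT, ΔGS and ΔADAM TYRO3, and RELB 1.58, 1.70 and 1.56 times. Over all 15098 genes tested, 5.03% had all 9 TYRO3 libraries above the 3 control libraries. The members were selected on these values, and nothing is read from the difference between their share and that background.

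Kappa B motifs stand in several of these genes' own promoters, and the matched stretches are shown because they are the sequence that members of both kinds share. The search covered RefSeq windows (GRCh38.p14) of 300 bases, 250 before and 50 after each start site, on both strands, for the 10-base kappa B consensus. A window was listed for 7 of the 9 members, with 11 windows in all. A match was in 7 of these 11 windows, those of 6 members, and in 7.73% of all 35116 windows. RELB and NFKBIE had no window in the table. A looser pattern of GGGNNNNNCC, which includes every match of the consensus, was in a window of each of the 7 members and in 58.7% of all windows. Each stretch below is 30 bases, 5′ to 3′ on the strand of the gene, with the match in capitals:
REL: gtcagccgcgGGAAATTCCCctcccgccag
NFKB1: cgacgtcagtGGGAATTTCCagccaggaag
NFKB2: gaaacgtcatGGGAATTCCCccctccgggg
NFKB2: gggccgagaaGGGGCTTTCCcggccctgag
NFKBIA: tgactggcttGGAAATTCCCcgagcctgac
TNFAIP3: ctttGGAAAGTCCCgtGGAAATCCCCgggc
BIRC3: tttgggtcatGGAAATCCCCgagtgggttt

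The REL stretch lies at chr2:60881518-60881547 on the plus strand, and its match begins 46 bases before the start site. The NFKB1 stretch is chr4:102501300-102501329 on the plus strand, with the match 49 bases before the start. The NFKB2 stretches are chr10:102394461-102394490 and chr10:102394490-102394519 on the plus strand, at 107 and 78 bases, and the first reads as the consensus on both strands. A further NFKB2 window, around a start site at position 102395705, held matches at 176 and 21 bases that are not printed. The NFKBIA stretch is chr14:35404811-35404840 on the minus strand, at 81 bases. The TNFAIP3 stretch, chr6:137867188-137867217 on the plus strand, holds a pair of matches at 67 and 55 bases. The BIRC3 stretch is chr11:102317275-102317304 on the plus strand, at 199 bases. Matches were thus found in NFKB2, NFKBIA and BIRC3, whose libraries separated from control, and also in REL, NFKB1 and TNFAIP3, whose libraries did not. RELA had no consensus match in either of its 2 windows.

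The levels below are in CPM, counts divided by the library total after TMM scaling, and the fold changes are log2 values ± SE from the edgeR model with a term for each experiment. Library totals ran from 18365999 to 38184838 estimated counts in 11 libraries, and the control library of experiment 1 held 4008293. In that library the 9 members had 44 to 215 counts each, against 273 to 3545 in the others. TYRO3 itself was at 47.3 to 56.6 CPM in the control libraries and at 1181 to 3694 CPM in the 9 TYRO3 libraries, which separates control from TYRO3 libraries but does not tell WT, ΔGS and ΔADAM apart, whose levels overlapped. All 7 melanocyte markers examined were detected, with a sum of 2292 to 2781 CPM in control and 1314 to 2547 CPM with TYRO3. MITF was at 305 to 337 CPM in control and at 95.0 to 254 CPM with TYRO3, while the ranges of the other melanocyte markers overlapped. The 4 immune markers summed to at most 1.31 CPM in any library and MS4A1 was at 0 in all. The 4 fibroblast markers summed to 73.9 to 95.6 CPM in control and 51.2 to 81.7 CPM with TYRO3. Most of this was LUM, at 65.1 to 78.1 CPM in control and 33.1 to 60.4 CPM with TYRO3. COL1A1 was at 7.68 to 25.4 CPM over all libraries, DCN at most at 1.84 CPM and COL1A2 at most at 0.44 CPM. The part of the melanocyte and fibroblast markers in the results was not tested. Nor can a change per cell be told apart from a change in the share of cells that took up the plasmid.

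**Figure D1:**
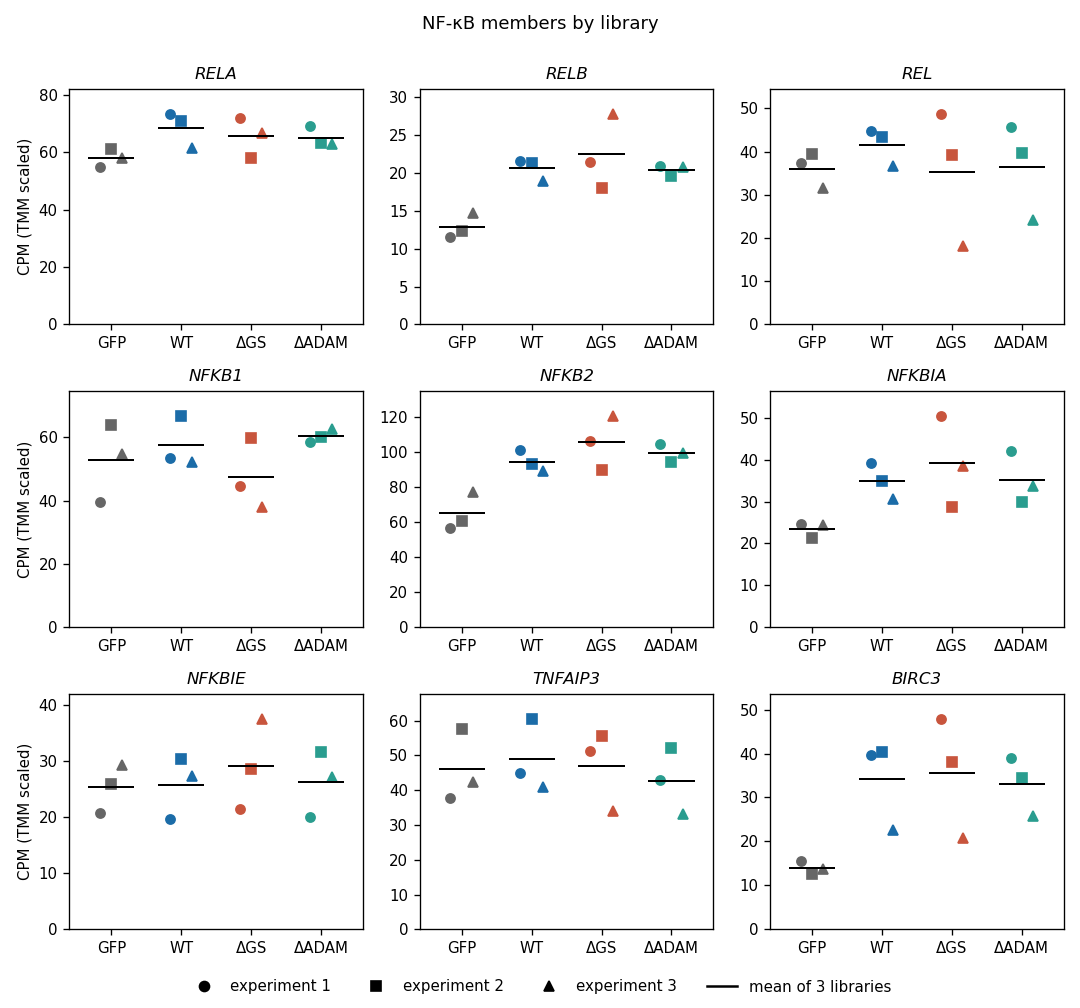
Level of each of the 9 genes in CPM (vertical axes, from 0) in the 12 libraries, by group (horizontal axes). Circles, squares and triangles are experiments 1, 2 and 3 and lines are means of 3 libraries; control and TYRO3 libraries are apart in RELB, NFKB2, NFKBIA and BIRC3 and overlap in the other 5 genes.

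Among the subunits, RELB (ENSG00000104856, chr19:45001430-45038198, plus strand) separated most widely from control. RelB pairs mainly with p52 and is the transactivating subunit of the non-canonical pathway. Its level was 11.6, 12.4 and 14.7 CPM in the control libraries of experiments 1, 2 and 3. It was 21.6, 21.3 and 18.9 CPM with WT TYRO3. It was 21.5, 18.1 and 27.8 CPM with ΔGS and 21.0, 19.6 and 20.8 CPM with ΔADAM. Within experiments, RELB was higher than control in 9 of 9 pairs of a TYRO3 library and the control library of its experiment. Here and for the genes below, the 9 pairs share 3 control libraries and are not 9 separate comparisons. The log2 fold change against control was 0.66 ± 0.14 with WT, 0.77 ± 0.14 with ΔGS and 0.64 ± 0.14 with ΔADAM TYRO3 (n = 3 per group). The smallest difference within an experiment was that of WT in experiment 3, 0.36, and the largest that of ΔGS in experiment 3, 0.92. Leaving out each library in turn kept the log2 fold change between 0.55 and 0.90.

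NFKB2 (ENSG00000077150, chr10:102394110-102402529, plus strand) encodes p100 and its product p52, and p100 also retains other subunits in the cytoplasm. Its control libraries had 56.5, 60.6 and 77.2 CPM. WT libraries had 101, 93.2 and 88.9 CPM in experiments 1 to 3. ΔGS libraries had 106, 89.5 and 120 CPM, and ΔADAM libraries 105, 93.8 and 98.9 CPM. All 9 TYRO3 libraries were above all 3 control libraries. For WT and ΔADAM the gap was narrowest in experiment 3, where the control library was the highest of its group. There WT exceeded it by 0.20 on the log2 scale, compared with 0.83 in experiment 1. For ΔGS the gap was narrowest in experiment 2, at 0.56. The fitted log2 fold changes were 0.53 ± 0.11 with WT, 0.68 ± 0.11 with ΔGS and 0.60 ± 0.11 with ΔADAM. RNA of RELB and of NFKB2 was thus higher with all 3 forms. Processing of p100 to p52, the partner of RelB, was not measured.

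RELA (ENSG00000173039, chr11:65653596-65663094, minus strand) encodes p65, the main transactivating subunit of the canonical pathway. It was at 55.0, 61.0 and 57.8 CPM in control and at 73.3, 70.7 and 61.3 CPM with WT TYRO3. With ΔGS it was at 71.8, 58.1 and 66.7 CPM and with ΔADAM at 69.1, 63.2 and 63.0 CPM. RELA was higher than the control library of the same experiment in 8 of 9 pairs, but the groups overlapped because the ΔGS library of experiment 2 lay below the control library. Against control, RELA changed on the log2 scale by 0.22 ± 0.09, 0.16 ± 0.09 and 0.15 ± 0.09 with WT, ΔGS and ΔADAM. GENCODE 29 places a non-coding gene on the other strand across this locus, as it does for TNFAIP3, and whether kallisto was set to use strand is not given in the sources used here.

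NFKB1 (ENSG00000109320, chr4:102501329-102617302, plus strand) encodes p105 and p50. Control libraries spread from 39.4 CPM in experiment 1 through 54.7 in experiment 3 to 64.0 in experiment 2. WT libraries had 53.6, 66.6 and 52.1 CPM in experiments 1 to 3, ΔGS libraries 44.5, 59.7 and 38.0 CPM, and ΔADAM libraries 58.5, 60.1 and 62.7 CPM. The groups overlapped, and 5 of 9 pairs were higher with TYRO3. Fitted log2 values against control were 0.10 ± 0.14, -0.18 ± 0.14 and 0.19 ± 0.13 with WT, ΔGS and ΔADAM.

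REL (ENSG00000162924, chr2:60881521-60931610, plus strand) encodes c-Rel, a subunit known best from lymphocytes. It had 37.3, 39.4 and 31.5 CPM in control and 44.7, 43.4 and 36.6 CPM with WT TYRO3, which was higher in all 3 experiments. With ΔGS the levels were 48.7, 39.2 and 18.1 CPM, and with ΔADAM 45.6, 39.7 and 24.2 CPM, and in experiment 3 both variants were below all the other libraries of the 12. The log2 fold changes were 0.18 ± 0.19, -0.14 ± 0.19 and -0.05 ± 0.19. The WT value fell to -0.01 without the WT library of experiment 3, and the ΔGS value was 0.10 without the ΔGS library of experiment 3. When genes were split into 5 classes by transcript length, REL, at a mean of 10994 bases, was in the longest. In the ΔGS library of experiment 3, the median log2 deviation from the experiment's mean was -0.24 in the longest class and 0.25 in the shortest, a difference of -0.49. In the other 11 libraries this difference ran from -0.15 to 0.24, and it was 0.13 in the ΔADAM library of experiment 3. BIRC3 is also in the longest class and NFKBIA in the shortest. The part of transcript length in these levels was not tested.

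The inhibitors did not move alike. NFKBIA (ENSG00000100906, chr14:35401511-35404749, minus strand) encodes IkB alpha, which is degraded on canonical signalling and made anew by the NF-kB it releases. It had 24.7, 21.4 and 24.4 CPM in control. It had 39.3, 35.0 and 30.6 CPM with WT TYRO3, 50.5, 28.8 and 38.5 CPM with ΔGS and 42.3, 29.9 and 33.8 CPM with ΔADAM. All 9 TYRO3 libraries were above control, with the widest gap in experiment 1 for ΔGS, 1.03 on the log2 scale, and the narrowest in experiment 3 for WT, 0.32. The log2 fold changes were 0.55 ± 0.13 with WT, 0.69 ± 0.13 with ΔGS and 0.55 ± 0.13 with ΔADAM.

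NFKBIE (ENSG00000146232, chr6:44258166-44265788, minus strand) encodes IkB epsilon, an inhibitor that acts with slower kinetics. In experiment 1 all 4 libraries lay between 19.7 and 21.5 CPM, below every library of the other experiments. In experiment 2 control had 26.0 CPM and the TYRO3 libraries 28.6 to 31.7 CPM, and in experiment 3 control had 29.3 CPM, WT 27.4, ΔGS 37.6 and ΔADAM 27.2 CPM. Its log2 fold changes of 0.03 ± 0.12, 0.21 ± 0.12 and 0.06 ± 0.12 turned to -0.19, -0.10 and -0.17 on the log2 scale of TPM, a level that allows for transcript length, with a pseudocount of 1.

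TNFAIP3 (ENSG00000118503, chr6:137867188-137883312, plus strand) encodes A20, a ubiquitin-editing enzyme that shuts off signalling to IKK. Control libraries had 37.9, 57.7 and 42.5 CPM. WT libraries had 45.1, 60.6 and 41.0 CPM, ΔGS libraries 51.4, 55.6 and 34.0 CPM and ΔADAM libraries 42.9, 52.1 and 33.1 CPM. The groups overlapped, TNFAIP3 was higher with TYRO3 in 4 of 9 pairs, and the log2 fold changes were 0.06 ± 0.12, -0.01 ± 0.12 and -0.14 ± 0.12. In experiment 1 the 3 TYRO3 libraries were above control and in experiment 3 they were below it. Although A20 is a textbook feedback target of NF-kB and its promoter window holds a pair of consensus matches, its level did not separate from control as those of NFKBIA and BIRC3 did.

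BIRC3 (ENSG00000023445, chr11:102317450-102339403, plus strand) encodes cIAP2, a ubiquitin ligase that limits cell death and, with TRAF proteins, keeps NIK low. It had the widest separation of the 9 genes. Its control libraries were within 12.6 to 15.5 CPM. WT libraries had 39.7, 40.3 and 22.7 CPM in experiments 1 to 3, ΔGS libraries 47.9, 38.1 and 20.8 CPM and ΔADAM libraries 39.1, 34.5 and 25.7 CPM. Experiment 3 gave the lowest value of every TYRO3 group, and there the log2 difference from control was 0.72, 0.59 and 0.90 with WT, ΔGS and ΔADAM, whereas in experiments 1 and 2 it lay between 1.33 and 1.67. The fitted log2 fold changes were 1.22 ± 0.18, 1.26 ± 0.18 and 1.19 ± 0.18. Leaving out each library in turn kept them between 0.98 and 1.55.

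**Figure D2:**
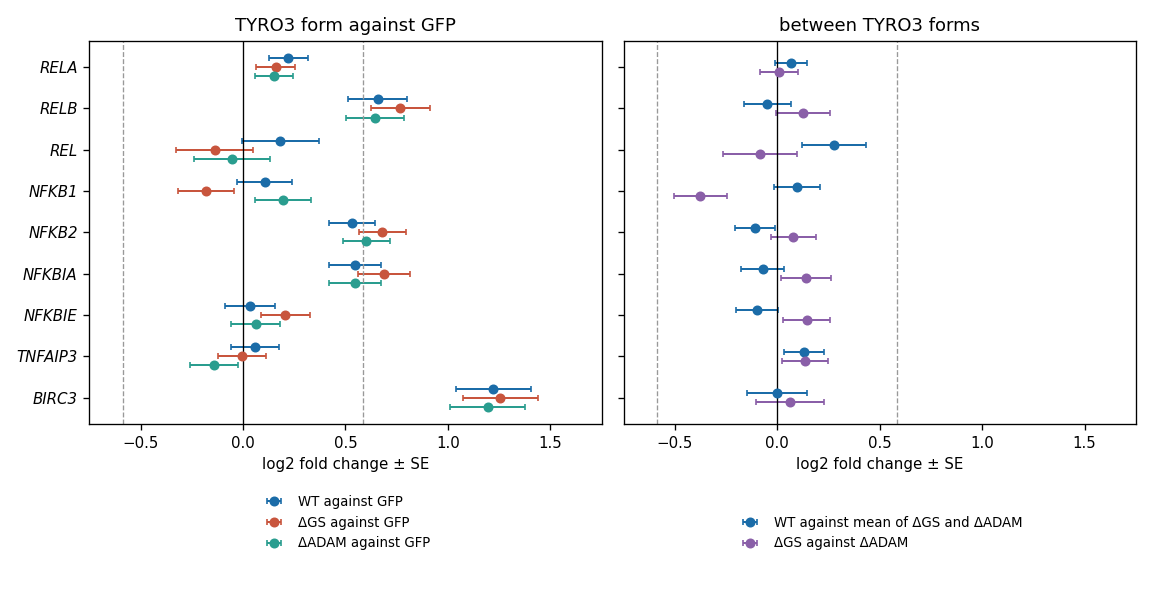
Log2 fold change ± SE (horizontal axes, edgeR, n = 3 libraries per group) of the 9 genes, for each TYRO3 form against GFP (left) and between TYRO3 forms (right); dashed lines mark a change of 1.5-fold. BIRC3, RELB, NFKB2 and NFKBIA lie to the right with all 3 forms, and values on the right panel run from -0.37 to 0.28.

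Under the thresholds applied to all genes in the edgeR fit (adjusted p-value not above 0.05, change beyond 1.5-fold), the members classed as called were RELB and BIRC3 with WT TYRO3, these 2 with NFKB2 and NFKBIA with ΔGS, and RELB, NFKB2 and BIRC3 with ΔADAM, all higher. Of all genes tested, 1.66%, 2.81% and 3.15% were called higher in the same comparisons, and since the members were selected on these contrasts the counts of 2, 4 and 3 are no test of them and are given beside this background without a reading. NFKB2 with WT and NFKBIA with WT and ΔADAM missed the fold threshold, at 1.45, 1.46 and 1.46 times control. Just inside it stood NFKB2 with ΔADAM at 1.52 times and RELB with ΔADAM at 1.56 times. The median log2 fold change of the 9 members was 0.22, 0.21 and 0.19, against -0.003, 0.007 and -0.002 over all genes tested. The WT median was 0.16 without the control library of experiment 1 and 0.36 without that of experiment 3. The ΔGS median was 0.10 without the ΔGS library of experiment 3 and 0.31 without that of experiment 2, and the ΔADAM median was 0.12 without the control library of experiment 1 and 0.34 without the ΔADAM library of experiment 2.

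These counts depended on the term for each experiment. When experiment 1 was set against the other two as the batches, as the study corrected them, edgeR called 0 members with WT and ΔGS and 1, BIRC3, with ΔADAM, and 0.0397%, 0.278% and 0.616% of all genes were called higher. Fold changes stayed near these values, with RELB at 0.66, 0.79 and 0.65 and BIRC3 at 1.27, 1.30 and 1.22, while their SE rose to 0.16 and 0.26. In experiments 2 and 3 alone, 0, 0 and 1 members were called, beside 47, 147 and 170 of 14960 genes called higher. Without the control library of experiment 1, the shallowest, BIRC3 alone was called with WT and with ΔADAM, and RELB, NFKB2 and BIRC3 with ΔGS. In that fit 122, 206 and 215 of 15328 genes were called higher with WT, ΔGS and ΔADAM. Without the ΔGS library of experiment 3, the same members were called as with all 12 libraries, beside 312, 326 and 524 of 15325 genes called higher. The count with WT was 0 without the WT library of experiment 2 and 4 without that of experiment 3. In these fits 78 of 15417 and 349 of 15437 genes were called higher. Over the 23 alternative fits of each comparison, RELB was called in 10, 20 and 14 with WT, ΔGS and ΔADAM. BIRC3 was called in 18, 20 and 22 of them, NFKB2 in 4, 20 and 16 and NFKBIA in 3, 19 and 2.

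The 3 TYRO3 forms differed little from each other in these genes. For WT against the mean of ΔGS and ΔADAM, the log2 difference was -0.05 ± 0.12 in RELB, -0.11 ± 0.10 in NFKB2, -0.07 ± 0.11 in NFKBIA and -0.003 ± 0.15 in BIRC3. RELB was higher with WT than with the variants' mean in experiments 1 and 2, by 0.02 and 0.18, and lower in experiment 3, by -0.35. For ΔGS against ΔADAM, the same 4 genes had differences of 0.12 ± 0.13, 0.08 ± 0.11, 0.14 ± 0.12 and 0.06 ± 0.17. The widest differences were in REL, 0.28 ± 0.16 for WT against both variants, and in NFKB1, -0.37 ± 0.13 for ΔGS against ΔADAM. REL rested on experiment 3, where the difference was 0.81, compared with -0.08 and 0.14 in experiments 1 and 2, and NFKB1 differed by -0.39, -0.01 and -0.72 in experiments 1 to 3. No gene of the 15098 was called by edgeR in either comparison, which is 0% called in both. At an unadjusted p-value under 0.05 there were 237 and 216 genes, DESeq2 called 5 and 1, and limma on log2 TPM called 0 and 0. None of the 9 members was called by any of these tools, which does not show that the forms act alike.

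Levels between genes were compared in TPM, which takes account of transcript length. In control, RELA stood highest at 42.3 ± 3.8 TPM (SD, n = 3), then NFKB2 at 36.2 ± 7.7, NFKBIE at 26.4 ± 1.4, NFKBIA at 26.3 ± 0.80, NFKB1 at 22.0 ± 7.1 and TNFAIP3 at 19.0 ± 4.5 TPM. RELB at 9.75 ± 1.5, REL at 5.12 ± 0.89 and BIRC3 at 3.84 ± 0.63 TPM were lowest. RELA and NFKB2 overlapped, as did NFKBIE, NFKBIA and NFKB1, while RELB lay below every gene ahead of it in all control libraries. Over the 9 TYRO3 libraries NFKB2 was first at 62.2 ± 4.7 TPM and RELA second at 49.4 ± 6.5 TPM, and NFKBIA at 42.7 ± 8.4 TPM was above NFKBIE at 24.1 ± 5.2 TPM. BIRC3 at 9.97 ± 2.3 TPM passed REL at 5.89 ± 1.7 TPM. The order of NFKB2 and RELA was reversed in mean between control and TYRO3 libraries, with ranges of 27.7 to 42.6 and 38.0 to 45.1 TPM in control.

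**Figure D3:**
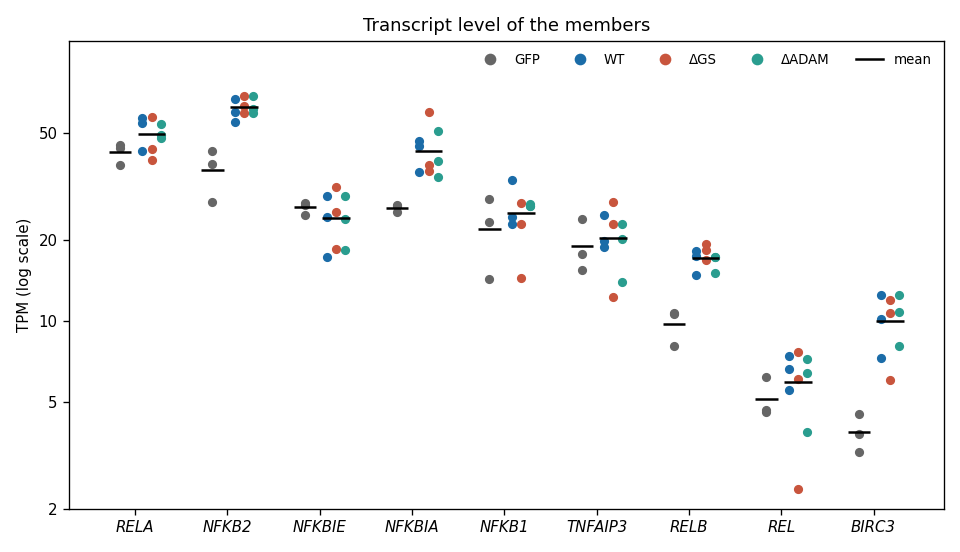
Level of the 9 genes in TPM (vertical axis, log scale) in each library by group, with genes ordered by their control mean and lines at the mean of the 3 control and the 9 TYRO3 libraries. NFKB2 lies below RELA in control, at means of 36.2 and 42.3 TPM, and above it in the TYRO3 libraries, at 62.2 and 49.4 TPM.

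Most members were read through 1 or 2 protein-coding transcripts. RELB-201 held 72.4% of the estimated counts of RELB and RELB-202 21.6%. RELA-202 held 87.9%, REL-201 97.1%, NFKBIA-201 91.2% and BIRC3-201 93.6% of their gene. For NFKB1 the leading transcript, NFKB1-205, held 58.1%, for NFKB2 NFKB2-201 58.2%, and for TNFAIP3 TNFAIP3-201 52.8%. NFKBIE-201 and NFKBIE-204, both of 2581 bases, received equal estimates of 45.1% each. With protein-coding transcripts alone, 1, 4 and 2 members were called with WT, ΔGS and ΔADAM. Of the 13517 genes tested in that fit, 179, 341 and 375 were called higher, and the counts of members are given without a reading.

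The genes whose pattern was most like that of RELB, by the correlation of log2 CPM centred within each experiment over the 12 libraries, were led by NFKB2 among 11091 genes with a mean of at least 5 CPM, with r = 0.98. SHISA5, GNL2 and SLC12A7 were among the 5 closest, at r = 0.98 for each. NFKBIA ranked 39 with r = 0.95, BIRC3 557 with r = 0.87 and RELA 771 with r = 0.84. NFKBIE had r = 0.52, TNFAIP3 0.04, NFKB1 0.03 and REL -0.17. The libraries share their control, their experiments and their depth, and these values are a description.

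Other genes of the pathway were taken from 6 lists with 101 genes, and 93 of them had enough counts to be tested; the lists were set with earlier results of these libraries known. With WT, ΔGS and ΔADAM TYRO3, 16, 22 and 24 of the 93 were called, all higher, and the median log2 fold change was 0.17, 0.20 and 0.17. Over all genes, as above, 1.66%, 2.81% and 3.15% were called higher, with medians of -0.003, 0.007 and -0.002, and the same background applies to each list below. With experiment 1 set against the other two, 0, 5 and 8 were called, beside 0.0397%, 0.278% and 0.616% of all genes called higher. With the term for each experiment but without the control library of experiment 1, the counts were 10, 16 and 14. In that fit 122, 206 and 215 of 15328 genes were called higher. For WT against both variants and for ΔGS against ΔADAM, edgeR, DESeq2 and limma called 0 of the 93, with 2 and 1 at an unadjusted p-value under 0.05 in edgeR.

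Of 13 receptors tested, 3, 3 and 5 were called, and 0, 0 and 1, TLR3 with ΔADAM, with experiment 1 set against the other two. TLR3, a sensor of double-stranded RNA, rose from 2.22 to 3.67 CPM in control to 5.64 to 13.9 CPM with TYRO3, at log2 fold changes of 1.62 ± 0.17, 1.69 ± 0.17 and 1.91 ± 0.17 with WT, ΔGS and ΔADAM (edgeR adjusted p = 0.0021, 0.0013 and 0.00051). NGFR, the low-affinity neurotrophin receptor of the TNF receptor family, rose by 1.21 ± 0.22, 1.15 ± 0.22 and 1.24 ± 0.22. TNFRSF12A, the receptor of TWEAK and an inducer of the non-canonical pathway, rose by 0.87 ± 0.21, 1.05 ± 0.21 and 0.96 ± 0.21, and TNFRSF1A, the main TNF receptor, was called with ΔADAM at 0.60 ± 0.13 (adjusted p = 0.018). When the shallow control library was left out, TNFRSF12A was called in none of the 3 comparisons, NGFR with ΔADAM alone, and TNFRSF1A in none. Over the 12 fits that left out 1 library, TNFRSF12A was not called in 10, 2 and 3 with WT, ΔGS and ΔADAM. NGFR was not called in 4, 2 and 1 of them and TNFRSF1A with ΔADAM in 5, while TLR3 was called in all. Of 6 ligands tested, 1, 2 and 3 were called, and 0 in each comparison with experiment 1 set against the other two. IL1B rose by 1.52 ± 0.23, 1.5 ± 0.23 and 1.60 ± 0.23, IL1A was called with ΔGS and ΔADAM and TNFSF10, which encodes TRAIL, with ΔADAM. Without the control library of experiment 1 neither IL1A nor TNFSF10 was called. Over the 12 fits, IL1A was not called in 7 with ΔGS and 3 with ΔADAM, and TNFSF10 in 6 with ΔADAM. IL1B was not called in 1 of them with WT and was called in all with ΔGS and ΔADAM. TNF and LTA did not pass the filter.

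Among 17 adaptors and ubiquitin ligases, RBCK1, which encodes HOIL-1 of the linear ubiquitin complex, was the gene called in all 3 comparisons, at 0.72 ± 0.14, 0.82 ± 0.14 and 0.84 ± 0.14. BIRC2, the neighbour and paralogue of BIRC3 that encodes cIAP1, was picked after its values were seen and stood at 0.42 ± 0.10, 0.51 ± 0.10 and 0.57 ± 0.10 with adjusted p = 0.042, 0.014 and 0.0077 by edgeR, under the fold threshold each time. Among 10 kinases MAP3K14, which encodes NIK, was called with ΔGS and ΔADAM, at 0.72 ± 0.13 and 0.69 ± 0.13, and had 0.46 ± 0.13 with WT (adjusted p = 0.076). Of 14 other inhibitors and cofactors BCL3, a nuclear cofactor of p50 and p52, was called with ΔGS at 0.74 ± 0.18 (adjusted p = 0.028), and had 0.65 ± 0.18 with WT and 0.51 ± 0.18 with ΔADAM. Without the control library of experiment 1, BCL3, RBCK1 with WT and MAP3K14 with ΔADAM were not called. Over the 12 fits that left out 1 library, RBCK1 with WT was not called in 4, MAP3K14 with ΔADAM in 3 and BCL3 with ΔGS in 5. RBCK1 with ΔGS and ΔADAM and MAP3K14 with ΔGS were called in all of them. With experiment 1 set against the other two, RBCK1 was called with ΔGS and ΔADAM, and MAP3K14 and BCL3 in none.

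The list of 33 further targets held 11, 14 and 14 called genes, all higher, with medians of 0.64, 0.72 and 0.67. With experiment 1 set against the other two it held 0, 4 and 6, among them IRF1 and IL6 with ΔGS and ΔADAM. IRF1, a transcription factor of interferon and NF-kB responses, rose from 7.08 to 10.8 CPM in control to 15.9 to 37.1 CPM with TYRO3, by 1.40 ± 0.13, 1.71 ± 0.13 and 1.67 ± 0.13. The cytokine IL6 rose by 1.86 ± 0.29, 1.99 ± 0.29 and 1.77 ± 0.29, the pattern recognition protein PTX3 by 1.28 ± 0.21, 1.30 ± 0.21 and 1.43 ± 0.21 and the urokinase gene PLAU by 1.00 ± 0.14, 1.04 ± 0.14 and 1.02 ± 0.14. IL6 was highest in experiment 1 in all 3 TYRO3 groups. With WT, IL6 and PTX3 were not called without the WT library of experiment 1 or that of experiment 2. IRF1 and PLAU were called in all 12 fits that left out 1 library. The companion list of 16 interferon-stimulated genes held 14, 15 and 14 called genes, led by OAS2 at 3.43 ± 0.26, 3.51 ± 0.26 and 3.63 ± 0.26, and by OAS1 and OAS3, which with OAS2 encode the synthetases of the activator of RNase L. OAS2 was highest in experiment 2 in every group. With experiment 1 set against the other two, edgeR called 0 of the 16 in each comparison, with 12, 13 and 13 at an unadjusted p-value under 0.05.

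**Figure D4:**
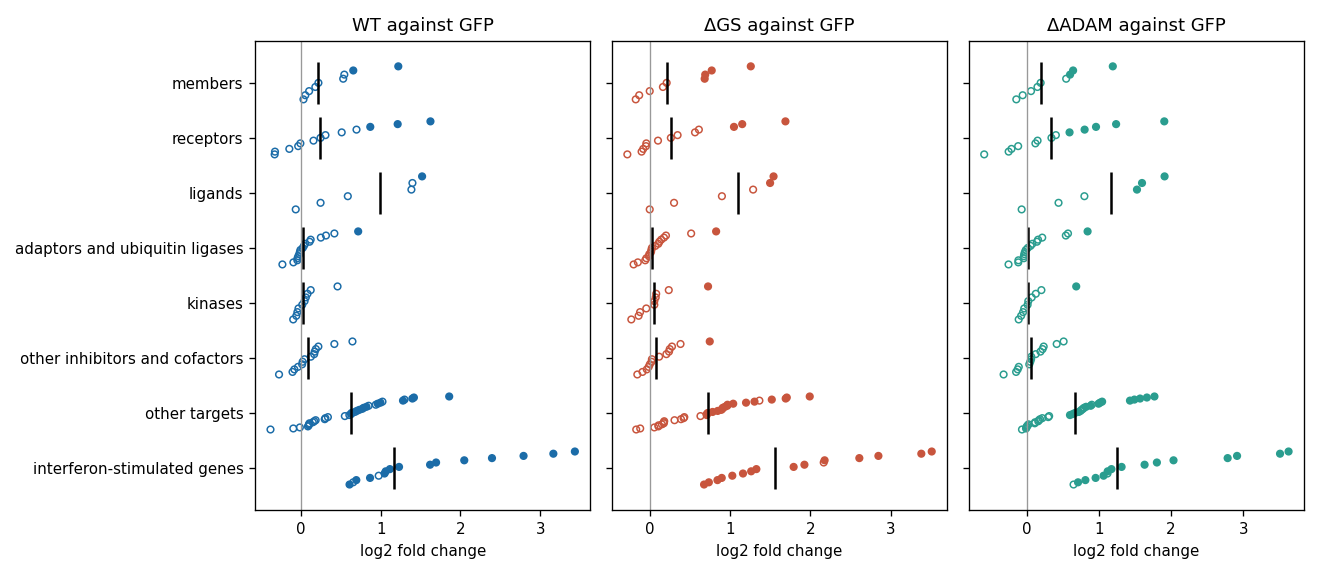
Log2 fold change of each gene (horizontal axes) in the 9 members, the 6 pathway lists and the interferon-stimulated genes, for WT, ΔGS and ΔADAM TYRO3 against GFP. Filled circles are called genes, lines are list medians; medians of further targets are 0.64, 0.72 and 0.67, and those of kinases, adaptors and ubiquitin ligases lie at 0.05 or below.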

How the data were processed

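RNA of 12 libraries, 3 per group, was measured by poly(A) sequencing. Per the labels and the study's methods, the authors processed reads with FastQC 0.11.9, PRINSEQ and Trimmomatic 0.33, and kallisto 0.46.0 estimated counts per transcript of Ensembl 96 (GRCh38). The deposited values are these estimated counts and TPM, before the authors' batch correction with batchelor and their DESeq2 tests. Transcript length and effective length are deposited beside the estimated counts and were used for the length of genes alone.

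Transcripts were matched by identifier without version to GENCODE 29 (169797 of 188753) and summed to 35579 genes. These matched transcripts held at least 97.4% of the counts of each library. Summed counts were rounded and tested with edgeR 4.0.16 in R 4.3.3 by the quasi-likelihood test, after TMM scaling and filterByExpr (min.count 10, min.total.count 15). Its terms were group and experiment. The SE given with a log2 fold change is its absolute value divided by the square root of the F value of that test. P-values were adjusted over all 15098 genes tested by the method of Benjamini and Hochberg, and called genes had an adjusted p-value not above 0.05 and a change beyond 1.5-fold. Totals ran from 4008293 to 38184838, so a gene at a given level is least precise in the control library of experiment 1. The libraries of an experiment pair by the experiment number in their titles. Deviations from group means correlated at 0.01 to 0.48 (median 0.26) in the 18 pairs of the same experiment and at -0.34 to 0.06 (median -0.12) in the 36 others. Centring each group on its 3 libraries pushes the 36 others to negative values where pairs of the same experiment are positive. The contrast is thus partly fixed by construction and is no separate test of pairing. Within an experiment, pairs of TYRO3 libraries were at 0.30 to 0.48 and pairs with a control library at 0.01 to 0.23. Those with the control library of experiment 1 were at 0.01 to 0.05, so pairing was weaker for the comparisons with control. P-values of this fit measure the spread between libraries that is left after the terms for group and experiment, on 1 cell line.

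The members and lists were chosen with earlier results of these data known. Genes named are the members, TYRO3, up to 3 called genes per list and comparison with the smallest adjusted p-value, genes closest to RELB by correlation, and BIRC2, added after its values were seen. Not all of these are named. Alternatives were other size factors, DESeq2 1.42.0, limma 3.58.1 on log2 TPM, other filters, blocks and groups of libraries, protein-coding transcripts, no fold threshold and each library left out. The procedure was tested on simulated data. Kappa B patterns were searched in RefSeq promoter windows. Python 3.11.15 (pandas 2.3.3, numpy 2.4.6, matplotlib 3.10.9) was used for tables and figures.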

Additional observations from a re-analysis of the deposited data

How the results depend on the processing

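The log2 fold changes of RELB, NFKB2, NFKBIA and BIRC3 against GFP stayed above 0 in all 23 alternative fits of each comparison. Of 1035 alternative values of the 9 members, 1013 moved by less than 1 SD between experiments, and none of the called ones changed sign. That SD comes from 3 experiments, and fits that leave out 1 library keep the rest, so most values could move little on this scale. The count is a description and no test of robustness. What changed was the number of calls, for WT, ΔGS and ΔADAM against GFP in that order below. With the replicate block they were 355, 708 and 784 genes, 2, 4 and 3 members and 16, 22 and 24 pathway genes.

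With no replicate block but a term for experiment 1 against experiments 2 and 3, they were 6, 69 and 168 genes, 0, 0 and 1 members and 0, 5 and 8 pathway genes. With groups alone and neither block nor pairing by experiment, they were 3, 4 and 5 genes and 0 members and 0 pathway genes in each. In experiments 2 and 3 alone, they were 47, 189 and 218 genes, 0, 0 and 1 members and 3, 9 and 12 pathway genes. With only the groups compared in the fit, WT had 30 genes, 0 members and 2 pathway genes, and ΔGS 469 genes. With no fold threshold there were 541, 1352 and 1537 genes, and WT had 4 members. DESeq2 called 610 genes and no filter 577 with WT. Limma on log2 TPM called 233, 418 and 499 genes with a pseudocount of 1 and 228, 423 and 518 with 0.1, and 4 members with WT under either. Protein-coding transcripts alone left 240 genes and 1 member with WT. For WT against both variants DESeq2 called 5 genes and no filter 2, and for ΔGS against ΔADAM DESeq2 called 1. The cause was not tested, and some of these fits also hold fewer libraries.

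Over the 12 fits that left out 1 library, genes called ran from 79 to 606, 269 to 777 and 198 to 870. Members called ran from 0 to 4, 3 to 4 and 1 to 3, and pathway genes from 3 to 22, 16 to 23 and 11 to 25. The members' median ran from 0.16 to 0.36, 0.10 to 0.31 and 0.12 to 0.34, from -0.14 to 0.10 for WT against both variants and from 0.003 to 0.15 for ΔGS against ΔADAM, and genes called for ΔGS against ΔADAM from 0 to 1. Without GFP replicate 1, the genes called were 148, 269 and 288 and the members 1, 3 and 1. Of 43 calls of the named pathway and interferon-stimulated genes, 27 held in every such fit and 31 without GFP replicate 1. Depth limits the values of that library, where the 9 members had 44 to 215 counts.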
